A study of Homo sapiens with 4 samples.

Results

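Closely spaced gene ends that carried IRF3 in a myeloma cell line were described here. They are regions where a ChIP peak summit lay within 1 kb of an end of each of 2 protein-coding genes that do not overlap. The cells were MM1.S, an established line of human multiple myeloma, a cancer of plasma cells, grown in medium with serum and given no treatment. The series holds 4 samples of it, which are 2 chromatin immunoprecipitations (ChIP) with an antibody to IRF3, numbered replicate 1 and 2, and an input library of sheared chromatin for each. All libraries come from this 1 line, and no library from cells without IRF3 was analysed here. The labels do not state whether the replicates were separate cultures, and their differences may therefore be technical. Peaks from both replicates that shared at least 1 bp made a shared region, and the summit came from the stronger of its peaks. Of 32246 shared regions, 9161 had the summit within 1 kb of a coding gene end and 1229 lay at paired ends, which is 3.81% of all shared regions and 13.4% of those at gene ends. The members were selected on measured values, namely the peak calls in both libraries and their summit positions, so that a peak is present in each is the rule and not a finding. There was no contrast between conditions, and no test was run.

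Neighbouring genes whose 5′ ends face each other across a short gap and that are transcribed away from it (head-to-head pairs) often share a bidirectional promoter, a CpG-rich stretch from which both are transcribed. Such promoters are typical of housekeeping genes, among them genes for DNA repair, mitochondrial proteins and histones. Head-to-tail pairs bring the 5′ end of a gene next to the 3′ end of its neighbour, and tail-to-tail pairs bring both 3′ ends together. IRF3 is a transcription factor of the interferon response that binds repeats of GAAA, the interferon-stimulated response element (ISRE), after activation by sensors of foreign nucleic acid.

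The strand of both genes was read for 935 of the 1229 regions. Of these, 722 (77.2%, exact binomial 95% interval 74.4 to 79.9) lay at head-to-head pairs, 202 (21.6%) at head-to-tail pairs and 11 (1.18%) at tail-to-tail pairs. The other 294 regions had no orientation read. Together the regions named 1180 closest gene pairs and 2338 genes. At 51 regions 3 genes took part, and 49 pairs had more than 1 region.

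Sequences of the gaps between facing genes are given for a few members, as the DNA that both genes share. The gaps of 8 head-to-head pairs, taken from RefSeq promoter windows (GRCh38.p14, plus strand, 5′ to 3′), follow. All lie between the annotated gene spans, and capitals mark matches on either strand to any of 11 short motifs that are spelled out further on. The 3 with the strongest IRF3 regions come at the start. In ZBTB4/POLR2A the capitals are 2 GC boxes, in PATL2/B2M a CCAAT box, and in H2AC17/H2BC17 a TATA box and 3 CCAAT boxes.
ZBTB4/POLR2A, chr17:7484250-7484365: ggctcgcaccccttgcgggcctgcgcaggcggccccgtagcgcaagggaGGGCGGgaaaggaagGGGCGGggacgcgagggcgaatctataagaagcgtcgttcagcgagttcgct
PATL2/B2M, chr15:44711391-44711516: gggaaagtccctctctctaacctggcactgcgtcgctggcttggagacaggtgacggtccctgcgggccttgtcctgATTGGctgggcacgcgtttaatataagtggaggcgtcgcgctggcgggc
H2AC17/H2BC17, chr6:27893186-27893424: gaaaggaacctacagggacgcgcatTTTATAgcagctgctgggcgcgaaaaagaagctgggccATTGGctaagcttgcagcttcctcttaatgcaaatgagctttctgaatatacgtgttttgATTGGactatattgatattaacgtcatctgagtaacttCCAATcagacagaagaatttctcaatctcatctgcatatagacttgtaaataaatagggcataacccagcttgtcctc

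An ISRE match inside the gap was found in the next 3, shown because it is the known IRF binding sequence. Only gaps covered whole by a promoter window could be printed. This leaves out better-ranked pairs with a match in the gap, among them MBD4/IFT122, NOA1/POLR2B and TAP1/PSMB9. The summits of the 3 shown lay inside a gene and not in the gap. They stood 195 bp (IFIH1/GCA), 592 bp (NOL8/CENPP) and 216 bp (MRPL50/ZNF189) from the printed ISRE match. The longest run of capitals in each is that match. NOL8/CENPP also holds an E-box, and MRPL50/ZNF189 a CCAAT box and a GC box.
IFIH1/GCA, chr2:162318685-162318762: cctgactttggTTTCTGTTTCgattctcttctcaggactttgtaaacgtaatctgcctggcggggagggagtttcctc
NOL8/CENPP, chr9:92325351-92325467: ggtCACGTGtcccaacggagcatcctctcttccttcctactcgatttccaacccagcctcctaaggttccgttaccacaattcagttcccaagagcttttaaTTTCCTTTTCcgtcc
MRPL50/ZNF189, chr9:101398619-101398850: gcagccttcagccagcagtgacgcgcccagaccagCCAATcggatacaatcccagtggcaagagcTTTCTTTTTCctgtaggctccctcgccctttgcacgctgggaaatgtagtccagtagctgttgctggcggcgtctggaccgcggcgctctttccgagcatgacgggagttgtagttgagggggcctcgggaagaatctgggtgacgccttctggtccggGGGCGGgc

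Bidirectional promoters of the textbook kind are represented by the last pair of gaps. HSPD1/HSPE1 encodes the large and the small subunit of the mitochondrial chaperonin and holds a GC box and an E-box. HARS1/HARS2 encodes the cytosolic and mitochondrial histidyl-tRNA synthetases and holds 3 ETS cores.
HSPD1/HSPE1, chr2:197500275-197500378: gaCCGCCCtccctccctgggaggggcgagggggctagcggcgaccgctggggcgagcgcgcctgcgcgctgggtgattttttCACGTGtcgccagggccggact
HARS1/HARS2, chr5:140691371-140691454: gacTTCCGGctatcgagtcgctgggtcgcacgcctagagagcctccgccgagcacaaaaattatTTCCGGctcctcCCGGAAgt

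The strongest region stood between ZBTB4, a zinc finger gene, and POLR2A, which encodes the largest subunit of RNA polymerase II (chr17:7483070-7485214). Its fold enrichment, the authors' ratio of ChIP pileup over local input background at the peak summit, was 65.95 in replicate 1 and 115 in replicate 2. Its summit lay 115 bp inside POLR2A. No other region at paired ends came near it: the next by rank, between SENP3 and the translation initiation factor gene EIF4A1 (chr17:7572123-7574450), had 24.3 and 51.3, with its summit 95 bp from the end of EIF4A1. Regions were ranked throughout by the worse of their ranks in the replicates.

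PATL2/B2M (chr15:44710389-44712947) ranked next, with 25.9 in replicate 1 and 39.6 in replicate 2, and its summit lay 46 bp from the end of B2M, the invariant light chain of MHC class I. The histone pair H2AC17/H2BC17 (chr6:27891721-27895772) had 21.2 and 48.4. ZCWPW1/MEPCE, where MEPCE caps the 7SK RNA, had 21.2 and 42.0, and HNRNPA2B1/CBX3, an RNA-binding protein gene and a heterochromatin protein gene, had 21.02 and 46.7. Their summits lay 124 bp from the end of MEPCE and 98 bp from that of HNRNPA2B1. At CYCS/SPMIP4 (19.6 and 35.4) the summit lay 55 bp from the end of the cytochrome c gene CYCS. The remaining members of the best-ranked 15 were H2BC21/H2AC20, PPP1R10/MRPS18B, RPL12/LRSAM1, BTK/RPL36A, ACACA/TADA2A, RAB13/RPS27, MYL6B/MYL6 and H2BC11/H2AC11. Each of the 15 was higher in replicate 2. A fold enrichment of 20 or more was reached by 10 members in replicate 1 and by 65 in replicate 2.

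The share of gene pairs with such a region depended on which ends face each other. The genome held 3131 pairs of coding genes that do not overlap and whose facing ends lie at most 2 kb apart, and 1233 of them (39.4%) had a shared region within 1 kb of both facing ends. Among head-to-head pairs the count was 714 of 865 (82.5%, interval 79.8 to 85.0). Among head-to-tail pairs it was 214 of 776 (27.6%, interval 24.5 to 30.9), and among tail-to-tail pairs 14 of 563 (2.49%, interval 1.37 to 4.14). Of the pairs without a strand for both genes, 291 of 927 (31.4%) were occupied. The peaks of replicate 1 alone occupied 83.8% of the head-to-head pairs and those of replicate 2 alone 85.3%, and 115 pairs had a peak in neither. These intervals cover counting error over pairs only, and neighbouring pairs are not independent.

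Head-to-head occupancy hardly changed with the gap up to 500 bp. It was 86.5% (180 of 208 pairs) for gaps of 0 to 99 bp, 89.2% (322 of 361) for 100 to 249 bp and 88.0% (162 of 184) for 250 to 499 bp. For 500 to 999 bp it was 77.0% (47 of 61). Only 3 of 51 pairs (5.88%) with gaps from 1000 bp up were occupied, where the rule leaves little room for a summit within 1 kb of both ends. Head-to-tail pairs followed the same course at a lower level, from 55.7% for 100 to 249 bp to 40.8% for 500 to 999 bp.

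Counted by gene, 1472 of 1705 5′ ends in head-to-head pairs (86.3%, interval 84.6 to 87.9) had a shared region within 1 kb. Of the 11296 5′ ends with no other coding gene end within 2 kb, 5226 (46.3%, interval 45.3 to 47.2) had one. A region beside either gene of a pair can count for both ends, and this raises the share at pairs by construction.

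**Figure D1:**
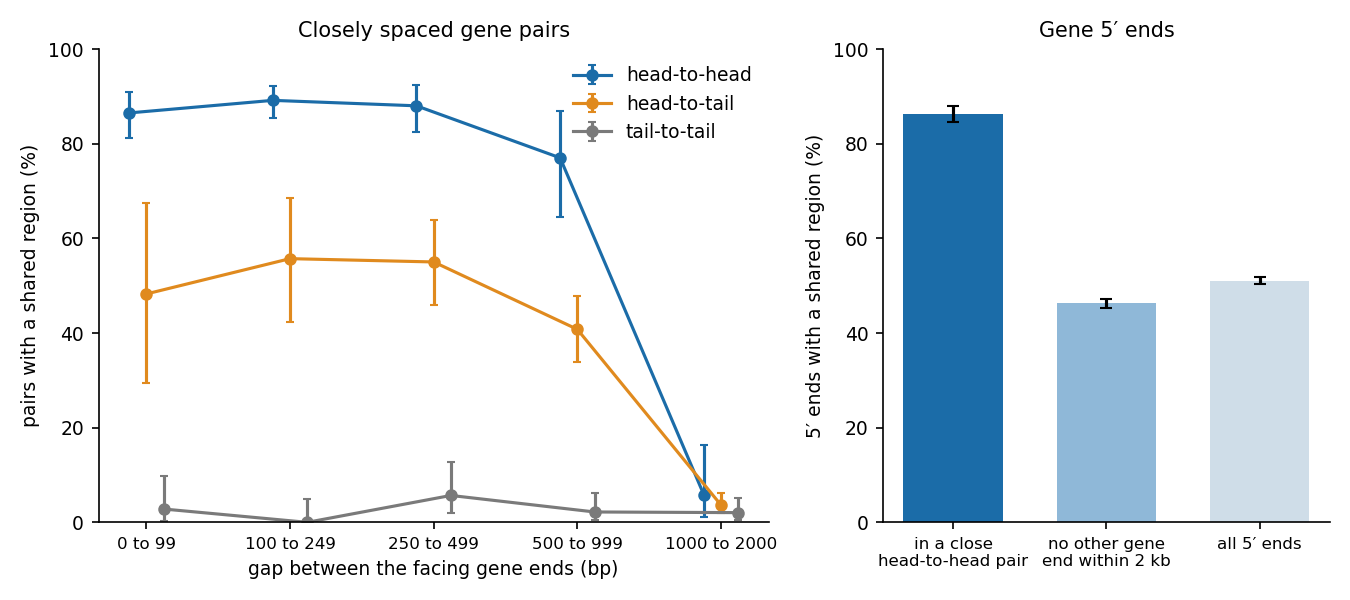
Left, closely spaced gene pairs with a shared IRF3 region within 1 kb of both facing ends (percent) by the gap between the ends (bp), for each orientation. Right, gene 5′ ends with a shared region within 1 kb (percent). Bars and points are shares and whiskers exact binomial 95% intervals. Head-to-head pairs stay between 77.0% and 89.2% for gaps under 1000 bp, tail-to-tail pairs near 0.

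Regions at head-to-head pairs were about as strong as those at single 5′ ends. Median fold enrichment at the 722 head-to-head regions was 5.61 in replicate 1, with quartiles of 4.19 and 7.52. In replicate 2 it was 8.58, with quartiles of 6.45 and 11.6. At the 6187 regions near the 5′ end of a single gene, or of overlapping genes, it was 5.42 and 8.30. Head-to-tail regions had 5.36 and 7.45, and the 11 tail-to-tail regions 4.11 and 4.24, close to the 4.09 and 4.54 of 350 regions near a single 3′ end. Over all 1229 regions the medians were 5.48 and 8.26, with ranges of 1.69 to 65.95 and 2.11 to 115. For all shared regions they were 4.28 and 4.94, and both replicates reached a fold enrichment of 5 at 56.5% of members, 54.6% of regions at single 5′ ends and 30.01% of all. With all shared regions ranked and cut into 5 classes of near-equal size, 8.44% of the strongest class and 1.10% of the weakest were members. Gene-end regions in general were more frequent in the stronger classes, and members made up 14.1% of the gene-end regions in the strongest class and 9.56% in the weakest. Head-to-head regions had a median width of 1069 bp against 1034 bp at single 5′ ends.

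The replicates ordered the members alike. Across the 1229 regions, which come from the same pair of libraries, Spearman's rho between the replicates' fold enrichments was 0.76 and Pearson's r on the log2 scale 0.80. Replicate 2 was higher at 1110 regions (90.3%), with a median log2 ratio of 0.61, and at regions of single 5′ ends it was likewise higher at 90.3%, with a median of 0.62. Over all shared regions it was higher at 68.2%, with a median of 0.25. The median pileup, the authors' count of stacked fragments at a summit, ran the other way, with 113 in replicate 1 and 92 in replicate 2. Replicate 2 was the deeper library, with 46474586 ChIP tags against 38568845, and the part of depth in this difference was not tested. The widest gaps were at PLPP5/NSD3 (2.47 and 11.1), RECQL4/LRRC14 (2.15 and 8.83) and CCNA2/BBS7 (2.78 and 11.1), where CCNA2 encodes cyclin A2 and RECQL4 a DNA helicase. Summits of the replicates lay a median of 37 bp apart, and 80.7% lay within 100 bp.

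**Figure D2:**
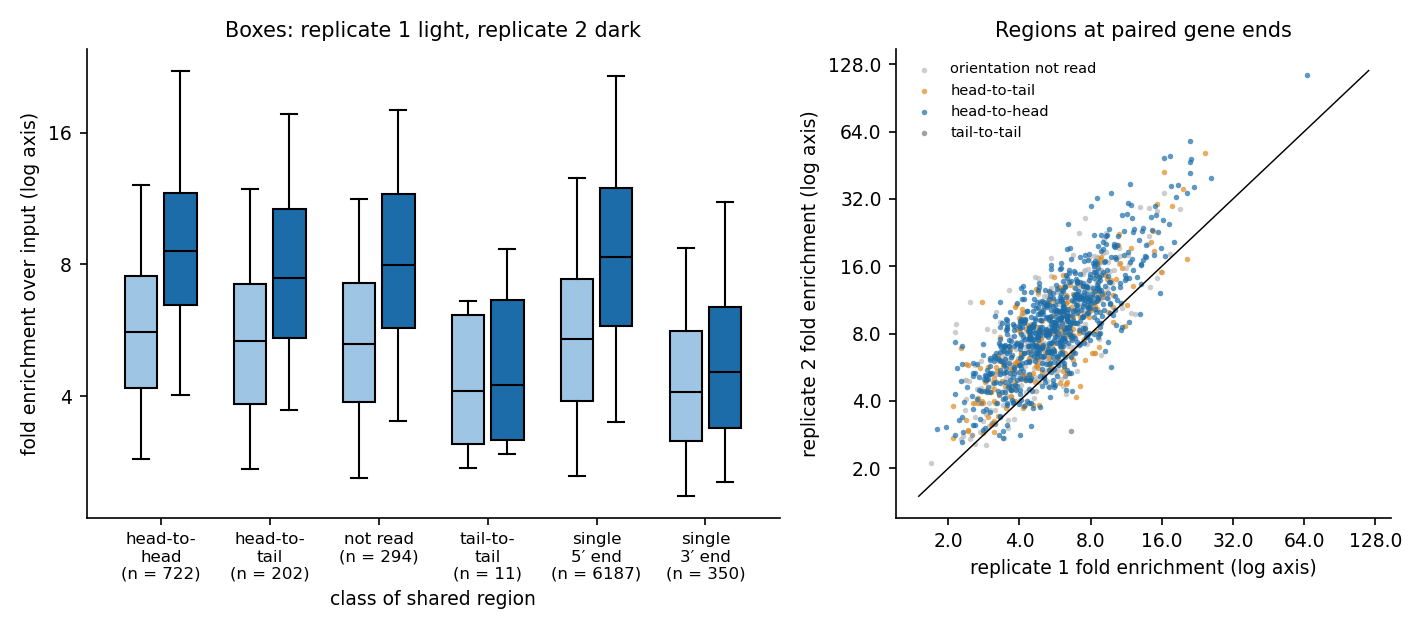
Left, fold enrichment over input (log axis) of shared regions by class, in replicate 1 (light) and replicate 2 (dark); boxes are quartiles with the median, whiskers percentiles 5 to 95. Right, fold enrichment of each region at paired ends in both replicates (log axes), with the line of equal values. Head-to-head regions and single 5′ ends have near-equal boxes, and most points lie above the line.

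Summits at head-to-head pairs seldom sat in the shared gap. Only 39 of 722 (5.40%) did. The gap had a median of 176.5 bp, and the summit lay inside the lower-coordinate gene at 359 regions and inside the higher-coordinate gene at 324. It stood a median of 117 bp inside the nearer gene (quartiles 77 and 154 bp), with 87 bp from the summits of replicate 1 and 119 bp from those of replicate 2. The same gene was nearer in both replicates at 642 regions (88.9%), and at 69 the summits of the replicates lay in opposite genes. Of the 722 regions, 577 (79.9%) covered both facing ends with their whole width.

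With gaps under 500 bp, 16 of 666 summits (2.40%) were in the gap, and from 500 bp up 23 of 56 (41.1%). The distance rule fixes part of this, since a summit within 1 kb of both ends has less room inside a gene as the gap widens, and none once the gap reaches 1 kb. Regions near a single 5′ end had the summit inside the gene at 76.1%, a median of 104 bp from the end over all of them. The 1477 summits before a single 5′ end had a median offset of -263 bp. In a head-to-head pair with a shorter gap, a summit that far upstream of a gene falls inside its neighbour, so the shares of 94.6% and 76.1% inside a gene cannot be compared directly.

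**Figure D3:**
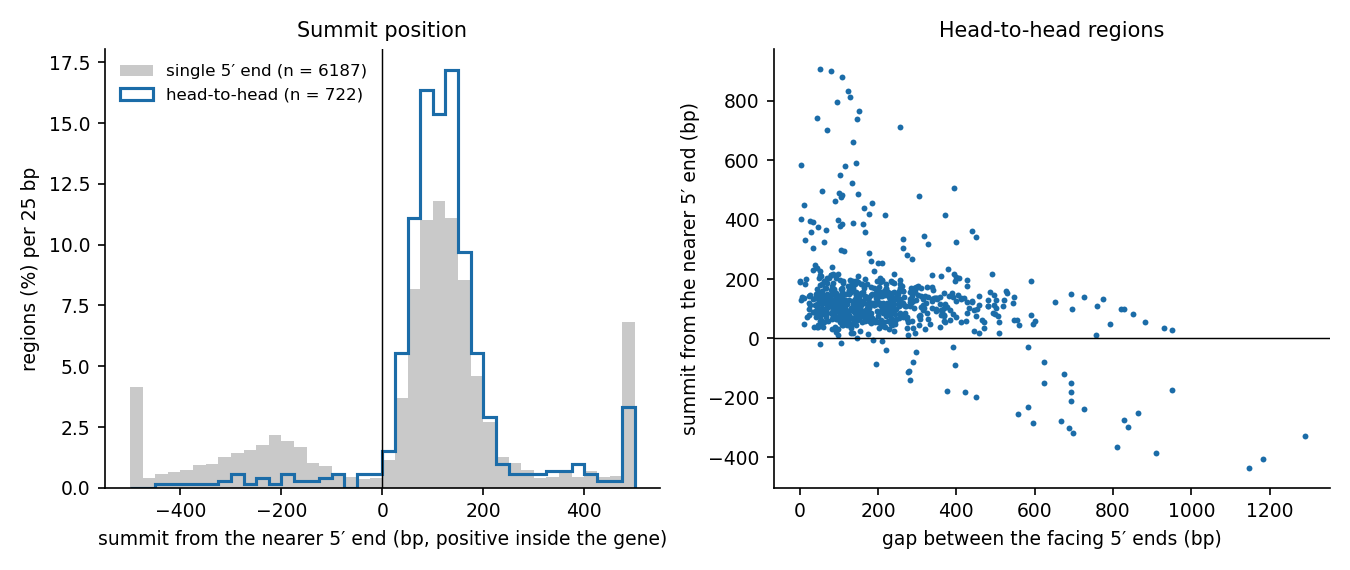
Left, distance of region summits from the nearer 5′ end (bp, positive inside the gene; values beyond the axis are pooled in the outermost bins) for head-to-head regions (line) and single 5′ ends (filled), in percent of regions. Right, the same distance for each head-to-head region against the gap (bp). Most head-to-head summits fall just inside a gene, with a median of 117 bp, and those below 0 come mostly with wide gaps.

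At head-to-tail pairs the summit mostly lay nearer to the gene with the facing 5′ end, at 180 of 202 regions (89.1%). It was a median of 144.5 bp from that gene and 565.5 bp from the gene with the facing 3′ end. Each distance runs to the nearest end of the gene, which need not be the facing one. Tail-to-tail regions were few. The strongest, RPL7L1/PEX39 on chromosome 6, had 8.99 in replicate 1 and 11.7 in replicate 2. Its summit lay 805 bp from RPL7L1 and 116 bp from an end of PEX39. With a gap of 364 bp, that end is the far one, the 5′ end of PEX39. TPRG1L/WRAP73 had 6.62 and 2.95. The others were NSD1/RAB24, ANKAR/ORMDL1, SYNGR2/TK1, MPIG6B/DDAH2, TCTA/AMT, RNF167/PFN1, CUL9/DNPH1, MGAT2/DNAAF2 and EIF4A2/RFC4. Of the 11 regions, 2 lay within 1 kb of the 5′ end of a coding gene whose strand was read, RPL7L1/PEX39 among them. The 5′ ends of genes without a strand were not searched.

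Genes were also grouped into 15 lists, and the share of each list at paired ends was read against the 11.7% of all 20037 coding genes that lie at such a region. Histone regions had the highest median in replicate 2 of any list, while in replicate 1 cytosolic ribosomal protein regions did. Of the histone genes, 26 of 91 (28.6%, interval 19.6 to 38.999) were at paired ends, in 13 regions. In 12 of these both genes were histones, 9 of them head-to-head. The medians over the 12 were 11.8 in replicate 1 and 28.7 in replicate 2. H2BC21/H2AC20 had 21.1 and 57.9, H2BC11/H2AC11 had 17.2 and 50.01, H2BC13/H2AC13 had 11.8 and 37.4, and the weakest, H2AC18/H4C15, had 2.80 and 3.90. In 10 of the 12 an H2A gene, whose product forms a dimer with H2B in the nucleosome core, faced an H2B gene across a gap of 193 to 247 bp. Histone genes have near-identical copies, so reads may be placed at the wrong copy.

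Cytosolic ribosomal protein genes were at paired ends in 17 of 82 cases (20.7%, interval 12.6 to 31.1), and their 18 regions were strong, with medians of 12.9 and 17.8. RPL12/LRSAM1 had 20.5 in replicate 1 and 34.1 in replicate 2, BTK/RPL36A 18.8 and 37.0, RAB13/RPS27 17.6 and 36.5, and NDUFA7/RPS28 16.2 and 25.8. At 10 of the 12 head-to-head regions with exactly 1 ribosomal protein gene the summit was nearer to that gene, in each replicate. The exceptions were RPS25/TRAPPC4 and RPS29/LRR1. Other lists varied. The summit was nearer to the list's gene at 5 of 6 such regions for chaperone genes and at 11 of 16 for splicing genes. It was nearer at 12 of 18 for oxidative phosphorylation genes and at 11 of 28 for DNA repair and replication genes. Mitochondrial ribosomal protein genes had 9 of 15, ZNF genes 8 of 16 and proteasome genes 3 of 6. Aminoacyl-tRNA synthetases had 4 of 6 and secretion genes 2 of 6. Plasma cell and myeloma genes had 2 of 2, antigen-processing genes 1 of 2 and antiviral genes 0 of 2.

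DNA repair and replication genes had the largest share of all lists, 40 of 109 (36.7%, interval 27.7 to 46.5), but ordinary strength, with medians of 5.21 and 9.89. PMS2/AIMP2, with a mismatch repair gene, had 10.3 and 19.8, and DESI1/XRCC6, with the gene of Ku70, had 9.73 and 33.8. PRKDC/MCM4 joins the catalytic subunit of DNA-dependent protein kinase to a subunit of the replicative helicase and had 16.0 and 15.1. UQCC6/TDG had 8.79 and 13.9.

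Mitochondrial genes followed. Of 77 mitochondrial ribosomal protein genes, 28 (36.4%) were at paired ends, with medians of 6.25 and 8.36. The best-ranked were PPP1R10/MRPS18B (22.0 and 36.3), HIRA/MRPL40 (14.9 and 29.8), SKA3/MRPL57 (12.03 and 15.4) and MITD1/MRPL30 (8.58 and 12.9). Oxidative phosphorylation genes were there in 25 of 88 cases (28.4%), among them RNF113A/NDUFA1 (8.86 and 22.1) and NDUFS1/EEF1B2 (8.51 and 12.9), both with subunits of respiratory complex I.

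Chaperone, proteasome and splicing genes lay between the mitochondrial lists and the background, and aminoacyl-tRNA synthetases were level with oxidative phosphorylation genes. Chaperone genes had 9 of 34 (26.5%), among them APTX/DNAJA1 (14.4 and 26.6), CDNF/HSPA14 (7.97 and 12.6) and TCP1/MRPL18 (7.91 and 11.3). Proteasome genes had 10 of 48 (20.8%), with PSMA7/SS18L1 (10.8 and 10.4) and PSME4/ACYP2 (7.42 and 13.1). Aminoacyl-tRNA synthetases had 10 of 35 (28.6%), with AARS1/DDX19B (8.54 and 32.3), RARS2/ORC3 (5.97 and 9.37) and EXOSC6/AARS1 (7.22 and 8.23). Splicing genes had 20 of 84 (23.8%), with CBX5/HNRNPA1 (14.1 and 29.0), SF3B4/MTMR11 (14.5 and 20.5) and CDC26/PRPF4 (10.0 and 19.6). Genes of secretion and the unfolded protein response had 10 of 69 (14.5%, interval 7.17 to 25.04), near the background, with ALG2/SEC61B (8.48 and 16.5), XRRA1/SPCS2 (8.26 and 9.53), SEC31A/THAP9 (6.97 and 10.7) and a region beside DDIT3 and MBD6 (16.3 and 48.8, entered under LOC128125814/MBD6).

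Zinc finger ZNF genes fell below the background, with 34 of 509 (6.68%, interval 4.67 to 9.21). Their best-ranked regions were ZNF425/ZNF398 (11.6 and 14.2), LOC128031834/ZNF654 (8.88 and 15.3), ZNF490/ZNF791 (8.30 and 16.0) and CCT6B/ZNF830 (7.03 and 13.7).

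The lists differed in how many of their genes stand in a closely spaced pair at all. That was 26.6% of coding genes, 17.1% of ZNF genes, 53.2% of DNA repair and replication genes, 57.1% of mitochondrial ribosomal protein genes and 64.8% of histone genes. Among genes in such pairs, 43.9% of all coding genes (2338 of 5331) were at a region at paired ends. Histone genes, with 26 of 59 (44.1%), and proteasome genes, with 10 of 22 (45.5%), were near that level, and ZNF genes had 34 of 87 (39.1%). DNA repair and replication genes had 40 of 58 (69.0%), mitochondrial ribosomal protein genes 28 of 44 (63.6%) and splicing genes 20 of 32 (62.5%). Oxidative phosphorylation genes had 25 of 41 (61.0%), chaperone genes 9 of 15 (60.0%) and cytosolic ribosomal protein genes 17 of 32 (53.1%). Aminoacyl-tRNA synthetases and genes of secretion and the unfolded protein response each had 10 of 18 (55.6%). Plasma cell and myeloma genes had 4 of 6 (66.7%).

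Genes of the interferon response, the known targets of IRF3, were not more frequent. Of 66 antiviral and interferon-stimulated genes, 8 (12.1%, interval 5.38 to 22.5) were at paired ends, near the 11.7% of all coding genes. Of the 17 that stand in closely spaced pairs this was 47.1%. Their 8 regions had medians of 5.43 and 4.95. IRF7/CDHR5, with the gene of the factor that amplifies the interferon response, had 8.69 in replicate 1 and 15.5 in replicate 2. IFIH1/GCA, where IFIH1 encodes the RNA sensor MDA5, had 10.7 and 8.34.

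STAT2/APOF, with a subunit of the interferon-activated complex ISGF3, had 7.45 and 7.42. RNF31/IRF9, with its DNA-binding subunit, had 6.30 and 4.75. BST2/MVB12A, with the virus-tethering protein gene BST2, had 4.57 and 3.70. DHX58/KAT2A (3.63 and 5.16), STOML1/PML (2.98 and 3.09) and PLEC/PARP10 (1.69 and 2.11) were weaker. Replicate 2 was higher at only 4 of these 8, where it was higher at 90.3% of all members; this comparison was made after the values were seen. The IRF family itself gave 2 of 9 genes, IRF7 and IRF9.

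Antigen-processing genes had 6 of 22 (27.3%, interval 10.7 to 50.2). Of the 12 that stand in closely spaced pairs this was 50%, near the 43.9% of all coding genes in such pairs. Beside PATL2/B2M the regions were TAP1/PSMB9 (6.73 and 9.17), which pairs the peptide transporter with an immunoproteasome subunit, PSME2/RNF31 (5.59 and 7.53), TAPBP/ZBTB22 (6.72 and 6.10) and PSMB8/TAP1 (3.91 and 8.36). Genes of plasma cells and myeloma had 4 of 25 (16.0%): MZB1/PROB1 (14.8 and 18.8), where MZB1 encodes a chaperone of antibody assembly, CCND3/TAF8 (7.78 and 13.6), with cyclin D3, DIS3/PIBF1 (4.68 and 10.5), with an exosome ribonuclease, and SHC1/CKS1B (3.55 and 8.57), with a regulator of cyclin-dependent kinases.

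**Figure D4:**
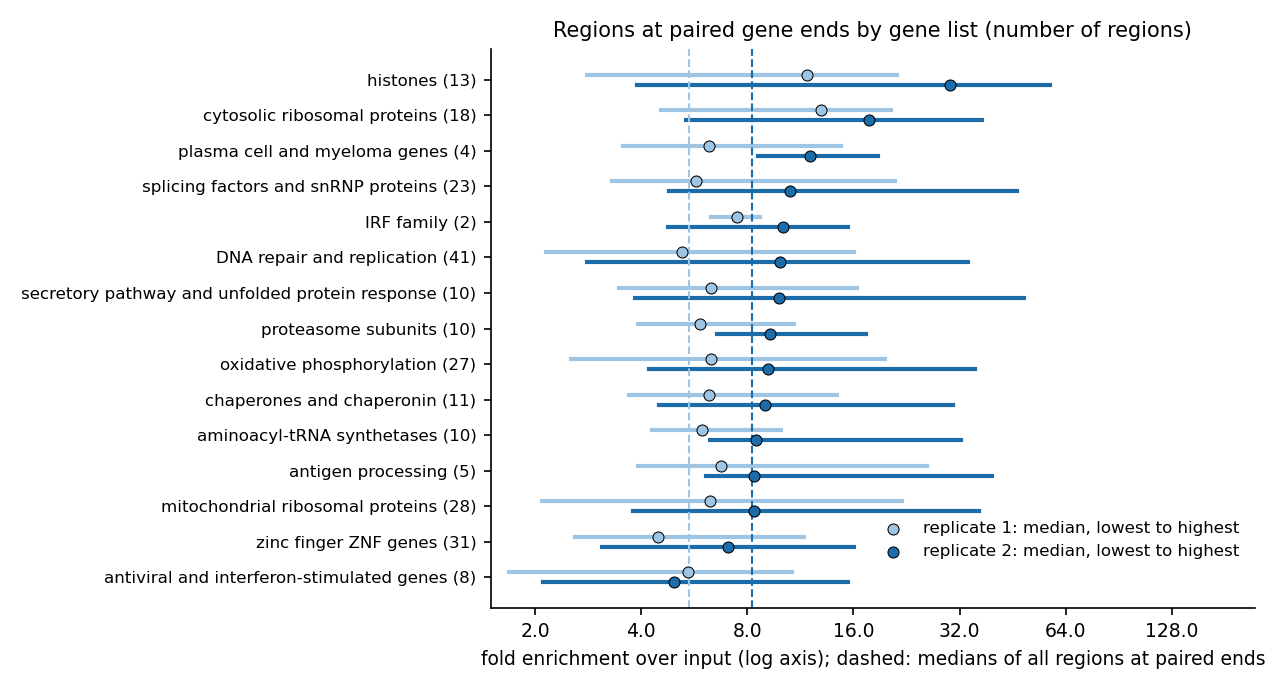
Fold enrichment over input (log axis) of regions at paired ends that hold a gene of each of 15 lists, with the number of regions; points are medians, bars run from the lowest to the highest region, and dashed lines are the medians over all 1229 regions (5.48 and 8.26). Histone and cytosolic ribosomal protein genes have the highest medians, antiviral genes the lowest in replicate 2.

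Of 22 gene pairs known as bidirectional or closely paired, 13 were members. The spans of 7 overlap in RefSeq and cannot be members, and HSPA1B/HSPA1L have a gap past the limit. The remaining pair, the collagen genes COL4A1/COL4A2 with a gap of 126 bp, had no peak summit of either library within 1 kb of both ends. HSPD1/HSPE1 had 11.5 in replicate 1 and 30.7 in replicate 2, SURF1/SURF2 had 7.44 and 14.8, and FEN1/TMEM258, with a flap endonuclease gene, had 7.09 and 12.5. SIRT3/PSMD13 (6.36 and 9.36), MRPS12/SARS2 (5.01 and 8.10) and ATM/NPAT (4.97 and 10.0) lay near the median of all members. PSENEN/U2AF1L4 (4.07 and 7.96) and TK1/AFMID (3.79 and 8.68) were the lowest of them in replicate 1. HARS1/HARS2 had 9.98 and 9.65, nearly equal in both.

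What the members share in sequence was read in windows from 250 bp before to 50 bp after the first base of the gene nearer to the summit. Such a window was available for 657 of the 722 head-to-head regions, 5284 regions at single 5′ ends and 6219 5′ ends without a shared region. Median GC content was 64.0%, 66.0% and 57.7% in that order, and the median ratio of observed to expected CpG was 0.885, 0.868 and 0.427. Head-to-head windows were thus as CpG-rich as occupied single 5′ ends.

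Short motifs were searched on both strands by exact match. Shares were not adjusted for the GC and CpG content of the windows, and its part in differences between classes was not tested. The ETS core (CCGGAA) occurred in 44.0% of head-to-head windows (interval 40.2 to 47.9), 32.9% at single 5′ ends (31.7 to 34.2), 9.71% of windows without a region and 23.3% of all 13282 windows. YY1 (AAGATGGC) occurred in 9.13%, 6.34%, 1.32% and 4.15% in that order, and NRF1 (CGCATGCG) in 6.39%, 4.37%, 0.868% and 2.98%. The GC box (GGGCGG) was as common in head-to-head windows (74.1%) as at single 5′ ends (73.9%), against 41.3% without a region and 58.7% of all. The CCAAT box occurred in 43.4%, 37.6%, 36.0% and 37.3%. The TATA box (TATAAA) was rarest where IRF3 was found at paired ends, with 3.50% against 5.81%, 15.4% and 10.1%. The remaining motifs gave 10.2% in head-to-head windows for the E-box (CACGTG; 8.91% of all), 3.96% for the CRE (TGACGTCA; 2.75%) and 3.35% for CTCGCGAG (1.60%).

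The IRF motifs were no more frequent in these windows than elsewhere. The windows end 50 bp inside the gene, while head-to-head summits lay a median of 117 bp inside it (lower quartile 77 bp). Sequence at most of these summits was therefore not read, and whether it holds an IRF motif was not tested. The ISRE (GAAANNGAAA, where N is any base) occurred in 2.59% of head-to-head windows (interval 1.51 to 4.11), 3.08% at single 5′ ends, 3.51% of windows without a region and 3.18% of all. The ETS-IRF composite (GGAANNGAAA), which can overlap an ETS core, occurred in 1.98%, 2.93%, 2.17% and 2.54%. Head-to-head regions with an ISRE in the window had medians of 5.83 and 9.17 (n = 17), and those without had 5.59 and 8.54 (n = 641); these n count regions, and regions can share a window. A match is only a run of letters, and none says whether IRF3 contacts it.

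With the windows of both genes searched, 21 head-to-head regions held 26 ISRE matches, at a median of 214 bp from the summit, and 3 matches lay within 100 bp. The place of the windows sets part of these distances. Each window ends 50 bp inside its own gene, most summits stood farther in, and sequence outside both windows was not searched. PATL2/B2M had a pair of overlapping matches just inside PATL2. IFIH1/GCA had 3, of which the nearest was 57 bp from the summit, inside GCA. TAP1/PSMB9, PSME2/RNF31, BST2/MVB12A and TRIM23/SHLD3 were among the rest, as were pairs with no known part in the interferon response such as NOA1/POLR2B and ATP7B/ALG11.

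**Figure D5:**
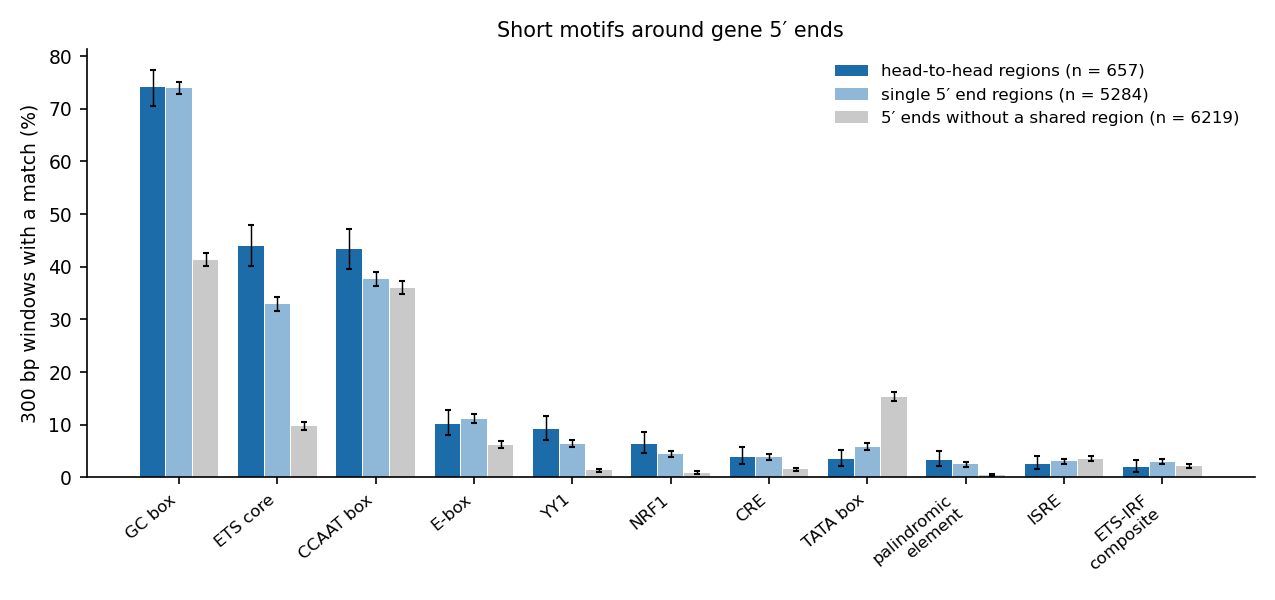
Share of windows around gene 5′ ends (percent) with an exact match to each motif on either strand, for head-to-head regions, regions at single 5′ ends and 5′ ends without a shared region; whiskers are exact binomial 95% intervals. The ETS core stands at 44.0%, 32.9% and 9.71%, and the ISRE at 2.59%, 3.08% and 3.51%.

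The weakest members were PLEC/PARP10 (1.69 and 2.11), a second region at ARPC5/RGL1 (1.78 and 2.999) and GON4L/SYT11 (1.96 and 3.06). Just inside the distance limit lay RAB24/MXD3 (summit 999 bp from the farther gene; 3.19 and 3.90), H2AC18/H4C15 (996 bp) and TMEM35B/ZMYM6 (995 bp; 5.65 and 5.48). Just outside lay regions at NAIF1/SLC25A25 (1001 bp, 7.29 and 15.2), ZFTRAF1/TMEM276 (1002 bp, 6.53 and 10.1) and CIMIP5/SLC66A3 (1005 bp, 5.65 and 5.86). Another region at NAIF1/SLC25A25 was a member. By chromosome, members were most numerous on 1 (117), 11 (102), 17 (99) and 19 (96). They made up 3.82%, 6.13%, 6.98% and 8.88% of the shared regions there, against 3.81% over all chromosomes. Chromosome 19 had the most closely spaced pairs, 351, of which 26.2% were occupied, against 39.4% of all such pairs. On chromosome 18, 70.0% of the 20 pairs were occupied.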

How the data were processed

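The deposited peak lists, 1 per IRF3 ChIP library, were the only files analysed. Their fold enrichment is the authors' ratio of ChIP to local background per peak. Their pileup column, a coverage signal at the summit, was deposited by the authors as well. Per the file headers, narrow peaks were called by MACS2 2.1.2 separately for each ChIP library against the input of its number, with a q cutoff of 0.05. The submitters' processing notes name GRCh38, MACS2 2.1.1, deepTools 3.3.1, SAMtools 1.2, BWA 0.7.15 and Picard 2.6.0. Peak calling used 38568845 and 46474586 ChIP tags and gave 41880 and 41666 peaks. The sources used here do not give whether problem regions were removed.

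Lists were merged with Python 3.11.15 and pandas 2.3.3, after a check on simulated peaks. Gene spans came from RefSeq (GRCh38.p14), and strand and promoter windows from its promoter table, which matched 15842 of 20037 coding genes. Orientation, exact binomial intervals (scipy 1.17.1) and motif matches were computed from these. Motif windows were used only for the 13282 genes whose first base is the end of the span.

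The rule for named regions took the best-ranked 15, the lowest 3, 3 on each side of the limit, the 3 with the largest replicate difference, 4 per gene list and 22 textbook pairs, and up to 8 sequences. A pair that the rule names is not reported here. PSMB8/TAP1, the tail-to-tail pairs and further examples were added after their values were seen. The members and lists were chosen with earlier results of these data known. Alternatives changed the distance limit, the fold enrichment, the overlap, the summit, the gene set and the replicates used.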

Additional observations from a re-analysis of the deposited data

How the results depend on the processing

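Head-to-head pairs had the highest occupied share, head-to-tail pairs the next and tail-to-tail pairs the lowest under each alternative tried. With a limit of 500 bp the shares were 74.2%, 21.4% and 1.36%, and 86.95% of the regions were head-to-head. With 2 kb they were 79.4%, 31.0% and 7.47%, and 63.8% of the regions were head-to-head. With a fold enrichment of at least 5 in both replicates 694 regions were left, the shares were 50.8%, 14.6% and 1.07%, and the median in replicate 2 was 10.7, since weak regions are removed. From a single replicate the head-to-head share ranged from 83.8% to 85.3%. Asking for 50% overlap, using the summit of the weaker peak or leaving out genes named LOC moved none of the 8 values by more than its spread. The share of head-to-head regions with the summit in the gap was added after seeing the data. No paired analysis was possible because the numbers pair each ChIP library only with its input, whose own files were not analysed here, so no groups were compared. Exon structure was not used, strand was missing for part of the genes, and fold enrichment from 2 libraries of 1 line gives no measure of variation between cultures.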
